A study of Mus musculus with 10 samples.

Results

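The collagen and laminin chains are the building blocks of basement membranes, of the tectorial membrane and of the connective tissue matrix. They were taken here as every listed gene symbol that begins with Col, a number, the letter a and a number, or that is Lam followed by a, b or c and 1 digit. This rule found 55 of 34590 listed genes: 43 collagen chains, 11 laminin chains and Col4a3bp, which encodes the ceramide transfer protein and is not a collagen. All 55 were looked up in every one of the 10 libraries.

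Bulk RNA-seq was performed on fluorescent cells handpicked from dissociated mouse cochleae, in 2 libraries for each of 5 cell types. Supporting cells (SCs; libraries 11 at P26 and 12 at P27) came from mice with Fgfr3iCreER and the Rosa26-CAG-loxP-stop-loxP-tdTomato reporter. Converted hair cells (cHCs; libraries 13 and 16, both P33) came from mice with those 2 alleles plus the transgenes Atoh1-HA and alpha9 AChR-EGFP. After tamoxifen, Fgfr3iCreER is active mainly in pillar and Deiters' cells, where in the cHC mice it switches on Atoh1, the transcription factor that starts hair cell development. Outer hair cells at P7 (OHCs (P7); libraries 14 and 15) were labelled as prestin-YFP heterozygotes, whereas the study's supplement lists a tamoxifen-inducible Prestin-CreERT2 line with tdTomato for them. Mature outer hair cells (OHCs (P22); library 1, titled m21, and library 2, titled f22) were prestin-YFP heterozygotes, which carry a knock-in at the prestin gene, and inner hair cells (IHCs; libraries 1 and 2, titled m74 and m75) carried Pval-Cre and the same tdTomato reporter. By their labelled genotypes SCs, cHCs and IHCs carry a Rosa26 tdTomato reporter and OHCs (P22) do not. The IHC titles name this reporter Ai9, whereas the study's methods describe Ai14. The study's supplement lists tamoxifen for the SC, cHC and OHCs (P7) mice and none for the OHCs (P22) and IHC mice. Genotype, tamoxifen, age and cell type cannot be told apart. In every list of values below the 2 libraries of a cell type follow the order given here.

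A collagen molecule is made of 3 alpha chains wound into a triple helix. Fibrillar collagens, such as types II, XI and XXVII, build fibrils, FACIT collagens such as type IX sit on their surface, and type IV forms the sheet of the basement membrane, where type XVIII also lies. A laminin is a cross-shaped trimer of 1 alpha, 1 beta and 1 gamma chain, secreted by epithelial cells and bound by integrins and dystroglycan. In the cochlea, type II, IX and XI collagens are known components of the tectorial membrane, the gel over the hair bundles, and the SCs, which stand on the basilar membrane, are the cells of the organ of Corti that contact a basement membrane. Mature hair cells do not reach it.

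The libraries held 15016129 to 40518766 counts on genes, and 44.2% to 72.1% of the reads were not assigned to a gene, the highest share being in OHCs (P22) library 1. Levels are given as counts-per-million (CPM), scaled by edgeR's trimmed mean of M-values (TMM) factors, which ran from 0.583 in OHCs (P22) library 1 to 1.2. CPM per kb of exon were used wherever genes were compared with each other. Most cell type markers fitted the labels. Sox2, a supporting cell factor, was at 77.1 and 77.5 CPM in SCs and at 0 in both OHCs (P22) libraries. Slc26a5, which encodes prestin, was at 3789 and 2749 CPM in OHCs (P22), 1094 and 1061 in OHCs (P7) and 97.6 and 23.4 in cHCs. Slc17a8, the inner hair cell glutamate transporter, was at 1907 and 1763 CPM in IHCs. Of 10 listed supporting cell markers, only Fgfr3 and Prox1 lay higher in both cHC libraries than in both SC libraries. Fgfr3 was at 458 and 431 CPM in cHCs and 312 and 167 in SCs. Prox1 was at 247 and 294 CPM in cHCs and 53.7 and 14.7 in SCs. Only Gjb2 lay higher in both IHC libraries (611 and 468 CPM) than in both SC libraries (393 and 124). The hair cell libraries were not free of supporting cell transcripts. The summed level of these 10 supporting cell markers was 8853 to 13040 CPM in SCs, 1313 to 3255 in cHCs, 919 to 1155 in OHCs (P7), 334 to 372 in OHCs (P22) and 1813 to 2144 in IHCs. S100a1 alone made up most of this sum in every library but cHC library 16, with 10810 and 7255 CPM in SCs and 353 and 324 in OHCs (P22). Sox2 was the 1 marker at 0 in both OHCs (P22) libraries. In bulk samples, fewer cells of a type and less RNA per cell cannot be told apart. In the labels, the libraries of SCs, cHCs and OHCs (P7) carry 1 series of numbers and those of OHCs (P22) and IHCs another. Within the first series, the titles of libraries 12, 13 and 15 hold the word Sample and a further number. Those of libraries 11, 14 and 16 do not, so each kind of title has 1 library of each of these cell types. Cell type and number series cannot be told apart where OHCs (P22) or IHCs are set against the other 3, while cHCs against SCs, OHCs (P7) against SCs and IHCs against OHCs (P22) lie within 1 series. The file attached to 4 records held the counts of another library of the same series, and the libraries are named here by the sample title that the file carries. With the files as attached, edgeR called 0 members and 0 of all genes in the joint test, where 12 members and 10.7% of all genes had an unadjusted p under 0.05.

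Sequence is shown for 4 genes on which the results turn, to set beside their values: Lamb2 and Col27a1, both called lower in OHCs (P22) against SCs, and Col20a1 and Lama5, which were not. The letters are the 250 bases before the transcription start in RefSeq (build GRCm38.p6), 5′ to 3′ on the gene's strand. Capitals mark matches on either strand to a GC box (GGGCGG), an E-box of the kind that Atoh1 and related factors bind (CAGNTG), a SOX-type motif (ACAANG) and a TATA box (TATAAA). No matches of different motifs overlapped in these 4 windows.
Lamb2 (chr9:108479612-108479861, plus strand): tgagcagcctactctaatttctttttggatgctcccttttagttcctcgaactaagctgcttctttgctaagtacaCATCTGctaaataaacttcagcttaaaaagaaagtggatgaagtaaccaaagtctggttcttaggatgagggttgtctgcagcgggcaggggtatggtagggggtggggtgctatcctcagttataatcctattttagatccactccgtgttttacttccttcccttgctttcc
Col27a1 (chr4:63215162-63215411, plus strand): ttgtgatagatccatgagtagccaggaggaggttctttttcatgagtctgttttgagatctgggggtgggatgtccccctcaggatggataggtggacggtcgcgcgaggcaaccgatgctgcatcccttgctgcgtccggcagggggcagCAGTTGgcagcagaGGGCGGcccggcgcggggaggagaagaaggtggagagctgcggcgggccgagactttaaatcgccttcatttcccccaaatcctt
Col20a1 (chr2:180986285-180986534, plus strand): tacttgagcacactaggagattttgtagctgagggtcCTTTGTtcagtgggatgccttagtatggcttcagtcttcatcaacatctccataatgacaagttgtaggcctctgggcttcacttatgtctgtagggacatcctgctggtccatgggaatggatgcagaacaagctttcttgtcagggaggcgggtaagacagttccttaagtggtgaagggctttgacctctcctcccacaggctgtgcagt
Lama5 (chr2:180225860-180226109, minus strand): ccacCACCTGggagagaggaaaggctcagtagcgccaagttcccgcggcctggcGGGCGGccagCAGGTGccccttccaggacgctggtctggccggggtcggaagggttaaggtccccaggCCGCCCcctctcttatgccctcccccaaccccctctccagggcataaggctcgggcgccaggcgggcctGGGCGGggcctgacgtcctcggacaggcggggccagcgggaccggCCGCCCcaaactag

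The Lama5 window is rich in G and C (72.4%, with 19 CG pairs) and holds 4 GC boxes and 2 E-boxes. Col27a1 (59.6% G and C, 15 CG pairs) has 1 GC box and 1 E-box, Lamb2 (43.6%, 3 CG pairs) has 1 E-box, and Col20a1 (49.2%, 1 CG pair) has 1 SOX-type match. Of all 32851 RefSeq mouse promoters in the table, 32.7% held a GC box, 44.8% an E-box, 36.3% a SOX-type match and 12.4% a TATA box in the same 250 bases, against a median of 52.4% G and C and 6 CG pairs. The table had 44 promoters of 40 members, of which 54.5%, 45.5%, 22.7% and 11.4% held these motifs. These are letter matches only, and binding was not measured.

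Of the 55 members, 39 passed the filter on low counts (29 collagen chains, 9 laminin chains and Col4a3bp) and were tested together with all 16891 genes kept, while 16 were not tested and reached at most 19.1 CPM in any library (Col24a1 in OHCs (P7) library 15). Col6a5 had no count in any library, and 10 members stayed under 1 CPM everywhere. A level of at least 1 CPM in both libraries was found for 18 members in SCs, 15 in cHCs, 19 in OHCs (P7), 8 in OHCs (P22) and 14 in IHCs, which is 32.7%, 27.3%, 34.5%, 14.5% and 25.5% of the members, beside 28.5%, 32.4%, 30.5%, 26.1% and 30.5% of all listed genes. The members at this level in OHCs (P22) were 6 collagen chains, Lama5 and Col4a3bp.

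**Figure D1:**
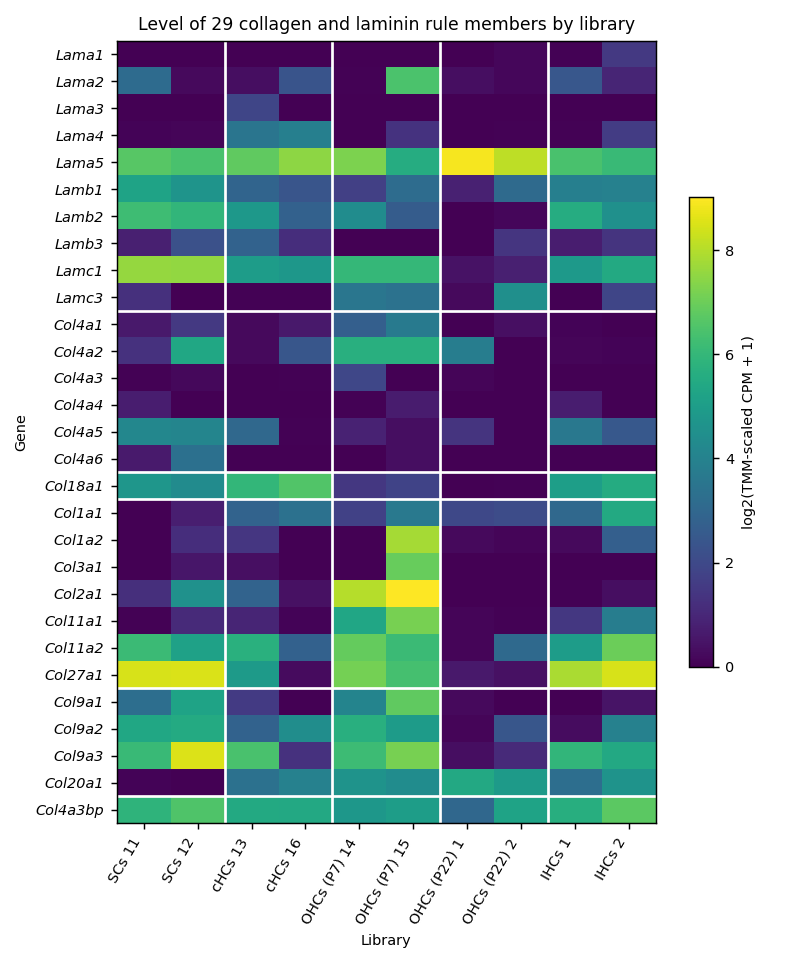
Colour gives log2(TMM-scaled CPM + 1) of 29 members described by name (rows: laminins, type IV collagens, Col18a1, fibrillar chains, FACIT chains and Col4a3bp) in each library (columns, grouped by cell type). Lamc1 and Col27a1 were bright in SCs (187 to 366 CPM) and dark in OHCs (P22) (under 1 CPM), Lama5 was bright throughout, and Col2a1 was brightest in OHCs (P7) (256 and 516 CPM).

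Of the 39 tested members, 8 differed among the 5 cell types in edgeR's joint quasi-likelihood F-test with Benjamini-Hochberg adjustment over all genes (threshold 0.05), among them Lamc1 (adjusted p = 0.00193), Col18a1 (0.00401), Col2a1 (0.00672), Col11a1 (0.0286), Col27a1 (0.0289), Lamb2 (0.0371) and Col20a1 (0.0404). The same test called 1320 of all 16891 genes, which is 7.81%. With Col9a3, which passed in 1 pairwise comparison, 9 members passed in any test and the other 46 in none. The calls of Lamc1, Col18a1 and Col2a1 held without any 1 library. Col11a1 missed the threshold without OHCs (P7) library 15 (adjusted p = 0.131), Col27a1 without OHCs (P22) library 1 or 2 (0.0653 and 0.0683), Lamb2 without SC library 11 or OHCs (P22) library 1 or 2 (0.0552 to 0.0889), and Col20a1 without library 11, 12, 14, 15 or 16 or OHCs (P22) library 1 (0.051 to 0.132).

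Laminin alpha chains give the trimer its receptor-binding end. Lama5, the alpha chain of most epithelial basement membranes (chromosome 2, 179911078 to 179960564, minus strand, mm9), was the only alpha chain at 46.9 CPM or more in all libraries, with 102 and 84.7 CPM in SCs, 112 and 178 in cHCs, 148 and 46.9 in OHCs (P7), 478 and 279 in OHCs (P22), and 85.3 and 68.5 in IHCs. Its 2 highest values were those of OHCs (P22), above all 8 others. In edgeR's test Lama5 did not pass in any pairwise comparison, the log2 difference between OHCs (P22) and SCs being 2.02 ± 0.64 (SE, adjusted p = 0.081). It passed in DESeq2 (2.15, adjusted p = 0.0187) and limma-voom (1.83, 0.0454). Per kb of exon it made up 99.9% of all alpha chain level in both OHCs (P22) libraries, 89.6% and 90.8% in cHCs and 91.6% and 99.7% in SCs.

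Lama2, the alpha chain of muscle and nerve basement membranes, was at 7.92 and 0.178 CPM in SCs, 0.255 and 4.09 in cHCs, 0.0273 and 86.4 in OHCs (P7), 0.265 and 0.126 in OHCs (P22), and 4.41 and 0.893 in IHCs. It was thus high in OHCs (P7) library 15 alone, where it made up 67.7% of the alpha chain level per kb and Lama5 only 31.3%. Lama4, found in vessel and nerve basement membranes, was at 0.0531 and 0.0888 CPM in SCs, 10.5 and 14 in cHCs, 0 and 1.48 in OHCs (P7), 0 and 0.0421 in OHCs (P22), and 0.0337 and 2.03 in IHCs. Both cHC libraries lay above all others for Lama4, but the difference from SCs did not pass (log2 difference 7.36 ± 3.19, adjusted p = 0.314 in edgeR, 0.0289 in DESeq2). The endothelial markers Kdr and Cldn5 were at 0 and at most 0.0425 CPM in cHCs, and the whole list of 4 endothelial markers summed to 0.0508 to 0.638 CPM there. Lama1 and Lama3 were not tested and were near 0, with highest values of 1.86 CPM in IHC library 2 and 2.68 CPM in cHC library 13.

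Of the beta chains, Lamb2 (chromosome 9, 108382193 to 108392861, plus strand), the usual partner of Lama5 in mature basement membranes, was at 72.6 and 60.5 CPM in SCs, 27.1 and 6.02 in cHCs, 19.9 and 5.10 in OHCs (P7), 0 and 0.126 in OHCs (P22), and 46.9 and 22.2 in IHCs. All 8 other libraries lay above both OHCs (P22) libraries, which held 3 counts between them. The ratio of pooled levels of SCs to OHCs (P22) was 796 (95% exact counting interval 272 to 3863), and edgeR gave a log2 difference of -9.71 ± 1.75 (adjusted p = 0.00667). Lamb1, the beta chain that is present early in development before Lamb2, was at 36.9 and 24.7 CPM in SCs, 6.42 and 4.14 in cHCs, 2.26 and 8.19 in OHCs (P7), 0.793 and 7.75 in OHCs (P22), and 13.9 and 14.7 in IHCs. It was highest in SCs, and the log2 difference between OHCs (P22) and SCs (-2.84 ± 1.48) did not pass (adjusted p = 0.248). Lamb3, a chain of the epithelial anchoring laminin, was at most 6.13 CPM (cHC library 13) and at 0 in both OHCs (P7) libraries.

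Lamc1 showed the clearest separation of the laminins. It is the gamma chain of nearly all basement membrane laminins (chromosome 1, 155066052 to 155179916, minus strand) and was at 189.6 and 187 CPM in SCs, 30.6 and 26.5 in cHCs, 62.9 and 62.9 in OHCs (P7), 0.353 and 0.716 in OHCs (P22), and 27.9 and 43.6 in IHCs. The cell types did not overlap except cHCs with IHCs, and SCs were highest and OHCs (P22) lowest. Against SCs, edgeR gave OHCs (P22) a log2 difference of -8.41 ± 0.9 (adjusted p = 0.000299). The differences from SCs of cHCs (-2.72 ± 0.69), IHCs (-2.4 ± 0.68) and OHCs (P7) (-1.58 ± 0.66) did not pass (adjusted p = 0.0859, 0.104 and 0.23), whereas DESeq2 called all 3 (0.000349, 0.00154 and 0.0494). Without OHCs (P22) library 1, which leaves both groups whole, the cHC difference passed in edgeR too (adjusted p = 0.0453).

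Lamc3, a less widely found gamma chain, was at 1.38 and 0 CPM in SCs, 0.0425 and 0.0254 in cHCs, 10.7 and 9.53 in OHCs (P7), 0.176 and 21.5 in OHCs (P22), and 0 and 2.71 in IHCs, so that OHCs (P22) held both a near-0 and the highest value, and nothing passed.

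**Figure D2:**
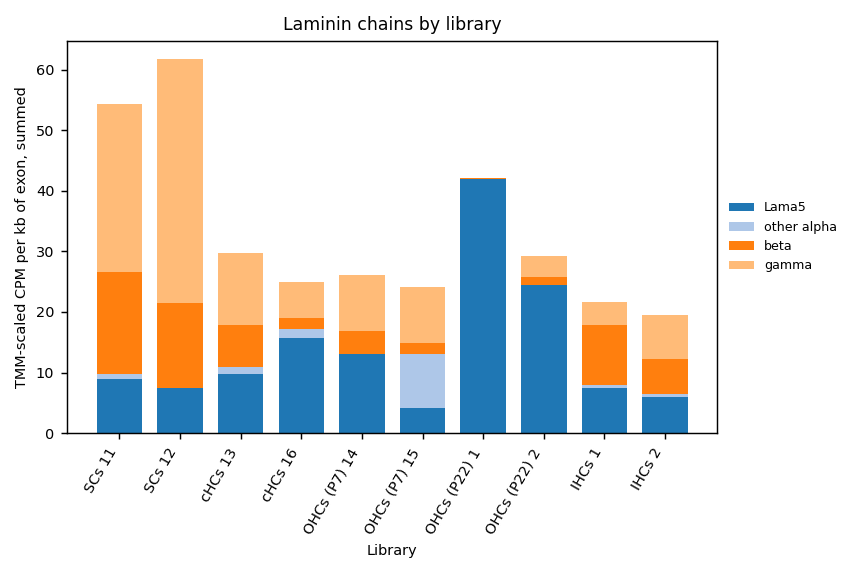
Stacked bars give the TMM-scaled CPM per kb of exon of the laminin chains in each library, as Lama5, the other alpha chains, the beta chains and the gamma chains. SC bars were the tallest (54.4 and 61.7) and held all 3 chain types, whereas Lama5 filled 99.5% and 83.6% of the OHCs (P22) bars (42.1 and 29.3).

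Summed over the 11 chains, the laminin level per kb was 58.0 ± 5.15 in SCs, 27.4 ± 3.46 in cHCs, 25.1 ± 1.43 in OHCs (P7), 35.7 ± 9.06 in OHCs (P22) and 20.6 ± 1.49 in IHCs (SD, n = 2). These sums were not tested. Without TMM scaling they were 56.0, 32.6, 24.8, 28.6 and 22.5 in the same order, so that cHCs then lay above OHCs (P22). In OHCs (P22) the beta chains summed to 0.08 and 1.17 and the gamma chains to 0.0887 and 3.61 per kb, beside 42 and 24.5 for the alpha chains (24.4 and 27.3 without TMM scaling). In SCs the same sums were 16.8 and 14.1 for beta, 27.8 and 40.1 for gamma, and 9.77 and 7.45 for alpha. The alpha chains were thus the lowest of the 3 chain types in both SC libraries and the highest in both OHCs (P22) libraries.

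The multiplexin Col18a1 (chromosome 10, 76514923 to 76629293, minus strand), a basement membrane proteoglycan whose end fragment is endostatin, was at 26 and 19.2 CPM in SCs, 62.2 and 94.7 in cHCs, 1.75 and 2.55 in OHCs (P7), 0 and 0.0421 in OHCs (P22), and 32 and 45.5 in IHCs. Both cHC libraries were above all others, and OHCs of either age lay below the other 3 cell types. OHCs (P22), with 1 count, were lower than cHCs (log2 difference -11.29 ± 1.47, adjusted p = 0.00463 in edgeR) and than SCs (-9.50 ± 1.4, adjusted p = 0.00219), and the pooled cHC level was 2896 times theirs (95% exact counting interval 519 to 114400). The difference of cHCs from SCs did not pass (1.8 ± 0.93, adjusted p = 0.387). The other multiplexin, Col15a1, was not tested and reached 0.275 CPM.

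Type IV collagen is the network collagen of all basement membranes. Its most abundant chain here was Col4a2, at 1.43 and 40.5 CPM in SCs, 0.170 and 4.29 in cHCs, 50.8 and 50.1 in OHCs (P7), 13.1 and 0 in OHCs (P22), and 0.101 and 0.0687 in IHCs. Its partner Col4a1, which pairs 2 to 1 with Col4a2 in the classical molecule, was lower, at 0.531 and 1.82 CPM in SCs, 0.170 and 0.533 in cHCs, 5.57 and 12.2 in OHCs (P7), 0 and 0.295 in OHCs (P22), and 0.0674 and 0 in IHCs. The 2 genes lie head to head and overlap, and 22 bp of exon are shared on opposite strands. Col4a5 was at 17.1 and 16.1 CPM in SCs, 7.19 and 0.0254 in cHCs, 0.818 and 0.269 in OHCs (P7), 1.59 and 0 in OHCs (P22), and 11.2 and 4.64 in IHCs, Col4a6 reached 9.15 CPM in SC library 12 and was at 0 in cHCs, OHCs (P22) and IHCs, and Col4a3 and Col4a4 stayed at or under 2.78 CPM. None of the 5 type IV chains tested passed in any comparison, although Col4a2 spread from 0 to 13.1 CPM within OHCs (P22) and from 1.43 to 40.5 CPM within SCs. Col4a1 and Col4a2 both had their highest library values in OHCs (P7).

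Of the fibrillar chains, Col27a1 (chromosome 4, 62875038 to 62996025, plus strand), a chain of cartilage-type fibrils, was at 357 and 366 CPM in SCs, 29.1 and 0.203 in cHCs, 138 and 81.5 in OHCs (P7), 0.529 and 0.337 in OHCs (P22), and 236 and 352 in IHCs. SCs and IHCs were highest, OHCs (P22) were under 1 CPM, and the 2 cHC libraries lay far apart, library 16 being the lowest of all 10. OHCs (P22) differed from SCs by -9.73 ± 1.85 on the log2 scale (adjusted p = 0.00905) and IHCs from OHCs (P22) by 9.43 ± 1.83 (adjusted p = 0.0336; 0.157 without OHCs (P22) library 1, 0.0873 without library 2). The cHC difference from SCs (-4.63 ± 1.45) did not pass (adjusted p = 0.177), but without cHC library 13 it was -10.77 (adjusted p = 0.000126). Library 13 also held more supporting cell marker level than library 16, 3255 against 1313 CPM in sum, of which S100a1 gave 2057 and 431 CPM. Of the same markers, Fgfr3 was at 458 and 431 CPM and Prox1, higher in library 16, at 247 and 294 CPM. The part of supporting cell transcripts in the Col27a1 value was not tested.

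Col2a1 (chromosome 15, 97806033 to 97835155, minus strand), the main fibril chain of cartilage and of the tectorial membrane, was at 1.30 and 22.6 CPM in SCs, 6.34 and 0.330 in cHCs, 256 and 516 in OHCs (P7), 0 and 0 in OHCs (P22), and 0.0337 and 0.275 in IHCs. It was high in OHCs (P7) and had no count in OHCs (P22), where 3 counts would be 0.0855 CPM over both libraries. The pooled level was thus at least 3875-fold higher in OHCs (P7) than in OHCs (P22) and at least 109-fold higher in SCs. edgeR called both differences (adjusted p = 0.0461 and 0.0316), but the first was lost without OHCs (P22) library 1 (0.151) or 2 (0.0682), and the second without OHCs (P22) library 1 (0.0994) or 2 (0.0923) or SC library 12 (0.0657), which held most of the SC counts, and limma-voom gave 0.0773 for the second. OHCs (P7) against SCs did not pass in edgeR (log2 difference 5.01 ± 1.64, adjusted p = 0.145) and passed in DESeq2 (adjusted p = 0.00742) and limma-voom (0.0243).

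Col11a1 and Col11a2 encode chains of the type XI fibril core. Col11a1 (chromosome 3, 113733458 to 113923636, plus strand) was at 0.0266 and 1.11 CPM in SCs, 0.893 and 0.0508 in cHCs, 39.6 and 142 in OHCs (P7), 0.0882 and 0.0421 in OHCs (P22), and 1.75 and 13.1 in IHCs, so that both OHCs (P7) libraries lay above all others. It passed in the joint test only, and its difference of OHCs (P22) from OHCs (P7), -10.44 ± 2.54 on the log2 scale, had an adjusted p of 0.107, which fell below the threshold without any 1 of the 6 SC, cHC and IHC libraries (0.0368 to 0.048). Col11a2, at 69.8 and 34.4 CPM in SCs, 51.6 and 6.05 in cHCs, 116 and 69.8 in OHCs (P7), 0.0882 and 7.45 in OHCs (P22), and 30.4 and 127 in IHCs, was spread widely within cHCs and OHCs (P22) and did not pass.

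In OHCs (P7), Tectb and Tecta, which encode the non-collagen tectorins of the tectorial membrane, were also high, at 1611 and 624 CPM for Tectb and 193 and 47.9 CPM for Tecta, while both were at 0 to 0.265 CPM in OHCs (P22). In SCs, Tectb was at 331 and 292 CPM and Tecta at 0.106 and 0 CPM. The whole list of 5 interdental and tectorial genes summed to 687 to 2232 CPM in OHCs (P7), 1477 to 4563 in SCs, 85.9 to 614 in cHCs, 405 to 607 in IHCs and 11.9 to 15.1 in OHCs (P22), and its member Ceacam16 was at 3154 and 225 CPM in SCs and at 1.77 and 0.201 CPM in OHCs (P7). The part of other cells' transcripts in the OHCs (P7) collagen levels was not tested.

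**Figure D3:**
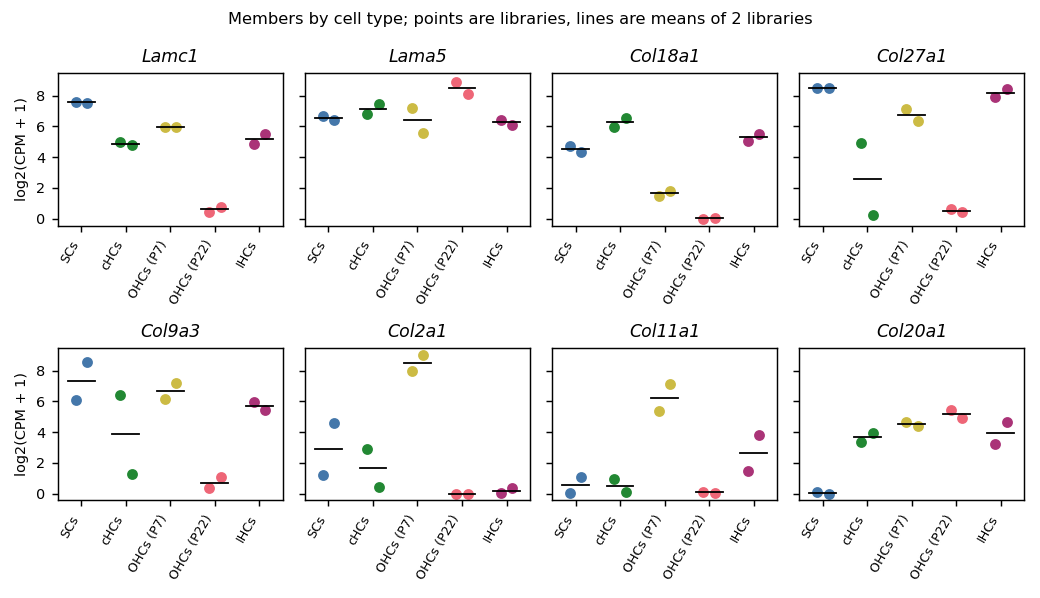
Points give log2(TMM-scaled CPM + 1) of 8 members in each library, and lines the mean of the 2 libraries of a cell type. Lamc1, Col18a1, Col27a1 and Col9a3 were near 0 in OHCs (P22), Lama5 was not, Col2a1 and Col11a1 were highest in OHCs (P7), and Col20a1 was near 0 in SCs alone.

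Type IX collagen, the FACIT collagen on type II fibrils, is a trimer of Col9a1, Col9a2 and Col9a3. Col9a3 (chromosome 2, 180332495 to 180356894, plus strand) was at 68 and 372 CPM in SCs, 85 and 1.42 in cHCs, 71.1 and 144 in OHCs (P7), 0.265 and 1.09 in OHCs (P22), and 60.5 and 42.7 in IHCs. OHCs (P22) lay below all other libraries, cHC library 16 being next at 1.42 CPM, and their difference from SCs was -8.27 ± 1.84 on the log2 scale (adjusted p = 0.0198). Without OHCs (P22) library 1 the adjusted p was 0.102, and limma-voom gave 0.102. The difference of cHCs from SCs did not pass (-2.35 ± 1.39, adjusted p = 0.447), but without cHC library 13 it was -7.27 (adjusted p = 0.0266). Col9a2, at 40.1 and 44.4 CPM in SCs, 6.17 and 20.6 in cHCs, 50.8 and 30.2 in OHCs (P7), 0.0882 and 4.34 in OHCs (P22), and 0.236 and 14.7 in IHCs, and Col9a1, at 8.53 and 36.4 CPM in SCs, 1.92 and 0 in cHCs, 15.8 and 110.2 in OHCs (P7), 0.176 and 0 in OHCs (P22), and 0 and 0.378 in IHCs, were also lowest or among the lowest in OHCs (P22) but did not pass (adjusted p = 0.196 and 0.114 against SCs). The exons of Col9a3 overlap those of Tcfl5 on the opposite strand over 234 bp, and the strand setting of the counting is not given in the sources used here.

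Col20a1 (chromosome 2, 180721240 to 180752245, plus strand), a further FACIT collagen, showed the opposite pattern, at 0.0531 and 0 CPM in SCs, 9.40 and 14.7 in cHCs, 23.8 and 19.8 in OHCs (P7), 42 and 28.9 in OHCs (P22), and 8.52 and 23.9 in IHCs. Every hair cell library lay above both SC libraries, which held 2 counts between them. The pooled levels of cHCs, OHCs (P7), OHCs (P22) and IHCs were 382, 680.3, 996 and 485 times that of SCs, with lower 95% counting bounds of 105, 188, 275 and 134. In edgeR the adjusted p was 0.0286 for cHCs, 0.0143 for OHCs (P7), 0.00628 for OHCs (P22) and 0.0188 for IHCs. Without SC library 12 these were 0.142, 0.0698 and 0.0892 for cHCs, OHCs (P7) and IHCs, and the cHC call was also lost without library 11 (0.0738) or 16 (0.0738), while the OHCs (P22) call held without any 1 library. The 4 comparisons share the SC libraries. No test between hair cell types passed for Col20a1, the log2 difference of OHCs (P22) from cHCs being 1.56 ± 1.21 (adjusted p = 0.51).

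Of the interstitial chains of fibroblasts, Col1a2 and Col3a1 were low in all but 1 library. Col1a2 was at 0 and 1.29 CPM in SCs, 1.7 and 0 in cHCs, 0 and 223 in OHCs (P7), 0.176 and 0.0842 in OHCs (P22), and 0.168 and 5.67 in IHCs, and Col3a1 was at 119 CPM in OHCs (P7) library 15 and at most 0.444 CPM elsewhere. Col14a1, Col24a1, Col5a2, Col12a1 and Lama2 also had their highest value in library 15 (5.17 to 86.4 CPM). In the same library Tbx18, Pou3f4 and Ogn, markers of cochlear mesenchyme, were at 3.09, 1.68 and 1.28 CPM, against at most 0.133 CPM in any other, although the whole list of 8 fibroblast markers summed to 125 CPM there and 153 CPM in library 14. Of that list, Dcn was higher in library 15 than in library 14 (28.3 against 0.627 CPM), and Postn was at 0.0671 against 0 CPM. Lum (21.6 against 50.2 CPM), Pdgfra (67.8 against 94.2) and Pdgfrb (1.07 against 7.99) were lower in library 15. The part of mesenchymal cells in the collagen and laminin values of library 15 was not tested. Col1a1 did not follow Col1a2 and was highest in IHC library 2, at 0 and 0.711 CPM in SCs, 6.25 and 9.40 in cHCs, 2.37 and 11.5 in OHCs (P7), 2.91 and 3.29 in OHCs (P22), and 7.17 and 43.8 in IHCs, and none of the 3 passed.

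Among the members not named by role so far, Col17a1, a transmembrane collagen of epithelial anchoring junctions, was at 0 and 0 CPM in SCs, 0 and 0.254 in cHCs, 4.58 and 0.336 in OHCs (P7), 32.7 and 20.1 in OHCs (P22), and 1.52 and 0.138 in IHCs. SCs had no count, so that the pooled OHCs (P22) level was at least 484-fold higher, but the adjusted p was 0.0529 in edgeR, beside 0.00689 in limma-voom. Col7a1, which forms anchoring fibrils, was at 13.5 to 68.3 CPM in cHCs and OHCs (P22) and at most 14 CPM in the other 6 libraries. Col8a1, a network collagen, was at 17.7 and 17.5 CPM in OHCs (P7) and at most 0.178 CPM elsewhere, a pattern that did not pass the joint test (adjusted p = 0.0573). Col10a1 was at 19.4 and 6.32 CPM in OHCs (P22) and at most 3.69 CPM elsewhere. Col4a3bp, the ceramide transfer protein, was at 57.8 and 91.7 CPM in SCs, 43.9 and 42.5 in cHCs, 26.5 and 31.7 in OHCs (P7), 7.14 and 36.5 in OHCs (P22), and 49.2 and 106 in IHCs, with overlapping levels in most cell types and no call. The 25 members not named by the fixed rule reached at most 68.3 CPM.

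**Figure D4:**
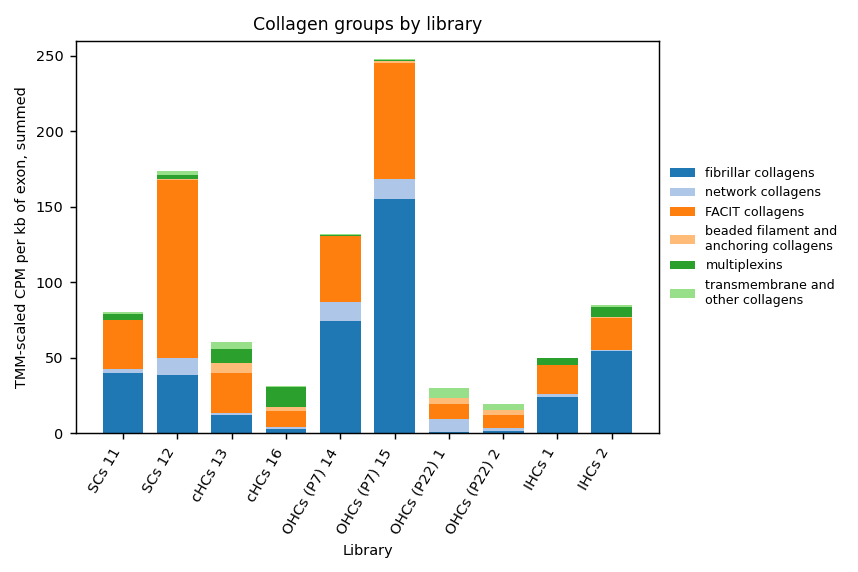
Stacked bars give the TMM-scaled CPM per kb of exon of the collagen chains in each library, by structural group. The OHCs (P7) bars were 132 and 248, largely fibrillar and FACIT chains, and the OHCs (P22) bars were the lowest pair (29.9 and 19.1), with fibrillar chains at 0.787 and 1.63.

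Per kb, the 43 collagen chains summed to 127 ± 65.8 in SCs, 45.8 ± 20.9 in cHCs, 189.8 ± 81.7 in OHCs (P7), 24.5 ± 7.64 in OHCs (P22) and 67.3 ± 24.6 in IHCs (SD, n = 2). From the highest mean to the lowest, neighbouring cell types overlapped, apart from OHCs (P22), whose highest library (29.9) was below the lowest cHC library (31.1). The leading chain was Col27a1 and then Col9a3 in the 2 SC libraries (34.1% and 55.5% of the sum) and Col9a3 and then Col18a1 in those of cHCs (36.4% and 43.4%). In both libraries it was Col2a1 in OHCs (P7) (32.2% and 34.6%), Col20a1 in OHCs (P22) (33.4% and 36%) and Col27a1 in IHCs (36.3% and 31.9%). Only OHCs (P7) and OHCs (P22) had, in both libraries, a leading chain that led in no other cell type.

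The pairwise comparisons, read beside all genes, gave the following counts. For cHCs against SCs, 1 member was called higher (Col20a1) and 0 lower, beside 1.75% and 0.0888% of all genes tested, and 5 of 39 members (12.8%) had an unadjusted p under 0.05, as had 15% of all genes. OHCs (P7) against SCs also gave Col20a1 as the 1 member called higher and 0 lower, beside 2.56% and 0.853%, with 10 members (25.6%) and 18.9% of all genes under an unadjusted p of 0.05. IHCs against SCs again gave Col20a1 alone, beside 2.23% of genes higher and 0.42% lower, with 9 members (23.1%) and 17.4% of all genes at an unadjusted p under 0.05. In these 3 comparisons DESeq2 called 4, 10 and 11 members (10.3%, 25.6% and 28.2%), beside 10.4%, 15.9% and 13.6% of all genes. limma-voom called 3, 6 and 3 members (7.69%, 15.4% and 7.69%), beside 6.31%, 6.94% and 6.23%. For cHCs against SCs the members' shares thus lay near those of all genes.

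OHCs (P22) against SCs had the most calls. Compared with SCs, 7 members were lower (Lamc1, Col18a1, Lamb2, Col27a1, Col9a3 and Col2a1 among them) and 1 higher (Col20a1), beside 4% of all genes lower and 4.01% higher. The median log2 difference was -2.88 over the 39 members tested and 0 over all genes. Below 0 were 30 of the 39 members and 8142 of the 16891 genes. The filter kept members through the groups where they were high, so these counts describe the tested members and not all 55. Some fibroblast markers moved with this comparison too, and Pdgfra moved the other way. Lum was at 716 and 684 CPM and Dcn at 96.3 and 18.7 CPM in SCs, and both were at 0 in OHCs (P22). The whole list of 8 summed to 717 to 816 CPM in SCs and 250.5 to 401 CPM in OHCs (P22). Pdgfra, at 0.0266 and 0.0888 CPM in SCs and 401 and 250.5 in OHCs (P22), made up nearly all of the latter sum. In OHCs (P22), 6 of the 8 were at 0 in both libraries. Of these, Tbx18, Pou3f4 and Postn were at most 0.133 CPM in SCs already. The part of fibroblast transcripts in the collagen and laminin differences was not tested.

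**Figure D5:**
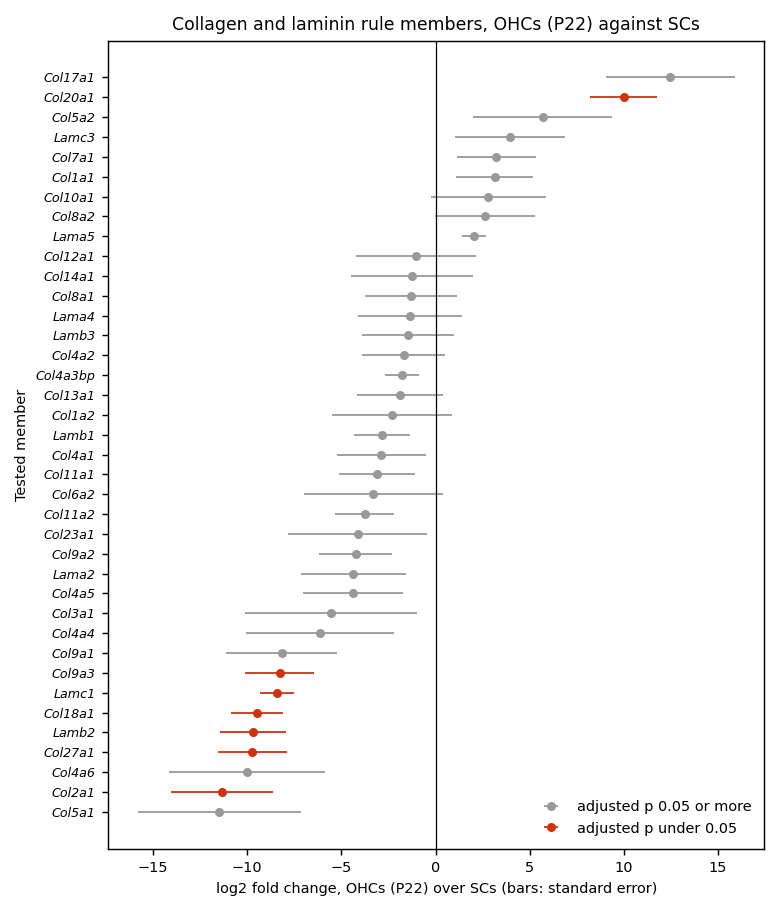
Points give edgeR's log2 fold change of OHCs (P22) over SCs for 38 of the 39 tested members, with bars of 1 standard error, and red marks an adjusted p under 0.05. The members called lower lay between -8.27 and -11.33 and the 1 called higher (Col20a1) at 10, while larger values such as Col17a1 (12.47) had wider errors and did not pass.

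OHCs (P22) against cHCs gave 4 members lower (Col18a1, Lamc1 and Lamb2 among them) and 0 higher, beside 2.02% and 1.16% of all genes. These groups also differ in genotype, age, number series and, by the study's supplement, tamoxifen, which cannot be told apart from cell type. Lamc1 differed by -5.69 ± 0.81 on the log2 scale (adjusted p = 0.00573) and Lamb2 by -7.7 ± 1.63 (0.028). The Lamb2 call was lost without cHC library 13 (adjusted p = 0.0758) or OHCs (P22) library 1 (0.127). All 4 were present in both cHC libraries at 6.02 CPM or more. The cHC libraries also held more supporting cell marker level (1313 to 3255 CPM in sum, beside 334 to 372 in OHCs (P22)), and its part in these values was not tested. The median was -2.58 over the tested members and -0.19 over all genes.

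For OHCs (P22) against OHCs (P7), 2 members were lower (Lamc1 and Col2a1) and 0 higher, beside 0.42% and 0.13% of all genes. Age and number series cannot be told apart here, and by the study's supplement the mouse lines and the tamoxifen treatment differ too. The Lamc1 difference was -6.83 ± 0.85 (adjusted p = 0.0114). An unadjusted p under 0.05 was reached by 17 of 39 members (43.6%) and 13.9% of all genes, and the median was -4.82, beside -0.04 over all genes. These members include Lama5, Col13a1 and Lamb3, which were higher in OHCs (P22). They also include Col3a1, Col1a2, Col5a1 and Lama2, at 0 to 0.0273 CPM in OHCs (P7) library 14 and 7.05 to 223 CPM in library 15. Here too the filter kept members through the groups where they were high, so these values describe the tested members only. DESeq2 called 15 members (38.5%) and 9.71% of all genes, and limma-voom 3 members (7.69%) and 0.651%. IHCs against OHCs (P22) gave 4 members higher (Lamc1, Col18a1, Lamb2 and Col27a1) and 0 lower, beside 0.977% and 0.485% of all genes. Lamc1 differed by 6.02 ± 0.82 (adjusted p = 0.00743; 0.051 in limma-voom), Col18a1 by 10.27 ± 1.43 (0.0079) and Lamb2 by 8.76 ± 1.69 (0.0322; 0.147 without OHCs (P22) library 1). The IHC libraries also held supporting cell markers, with Gjb2, a gap junction gene of supporting cells, at 611 and 468 CPM and Sox9 at 96 and 64.5 CPM, beside at most 0.793 and 1.23 CPM in OHCs (P22), and their part in these values was not tested.

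Genes that make, bind or cut collagens and laminins were read from lists, and in most of their calls the OHCs (P22) level was again below that of SCs. Their counts of calls in OHCs (P22) against SCs stand beside 4% of all genes lower and 4.01% higher and a median of 0 over all genes. Of 12 basement membrane partners, all tested, 5 were lower (Agrn, Sparc, Smoc1, Npnt and Ntn4) and 1 higher (Smoc2), and the median log2 difference of the 12 was -7.46. Smoc2 was at 0.176 CPM in OHCs (P22) library 1 and 82 CPM in library 2, beside 0.213 and 0.133 CPM in SCs. Sparc, a collagen IV binding protein, was at 6383 and 2122 CPM in SCs, 517 and 90.4 in cHCs, 1447 and 198 in OHCs (P7), 44.4 and 10.2 in OHCs (P22), and 411 and 207 in IHCs. Agrn, the laminin-binding proteoglycan agrin, was at 33.7 and 86.2 CPM in SCs, 16 and 11 in cHCs, 8.89 and 19 in OHCs (P7), 0.353 and 0.253 in OHCs (P22), and 8.12 and 41.9 in IHCs.

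Of 16 listed receptors, 12 were tested, and OHCs (P22) against SCs gave 4 lower (Itga6, Itgb1, Itgb4 and Bcam) and 0 higher. Itga6 and Itgb4 form the integrin of epithelial anchoring junctions, and Bcam binds Lama5. Bcam was at 137 and 127 CPM in SCs, 101 and 85.9 in cHCs, 43.2 and 0.336 in OHCs (P7), 0 and 0.253 in OHCs (P22), and 28.9 and 112 in IHCs, so that OHCs (P22), with the highest Lama5 levels, had the lowest Bcam levels together with OHCs (P7) library 15. Itga6, highest in the cHC libraries at 21.1 and 116 CPM, was also lower in OHCs (P22) than in cHCs (log2 difference -8.65 ± 1.7, adjusted p = 0.0202), as was Bcam (-9.25 ± 2.1, adjusted p = 0.0381).

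Of 26 listed collagen-making enzymes and chaperones, 24 were tested, and OHCs (P22) against SCs gave 4 lower (Plod2, Glt25d2, Adamts2 and Loxl1) and 1 higher (Pcolce2). Glt25d2, a collagen galactosyltransferase, was at 403 and 294 CPM in SCs, 94.9 and 12.3 in cHCs, 13.1 and 2.35 in OHCs (P7), 1.32 and 5.56 in OHCs (P22), and 61.5 and 91.6 in IHCs and was also lower in OHCs (P7) (log2 difference -5.49 ± 1.24, adjusted p = 0.0364). Pcolce2, an enhancer of procollagen cleavage, was at 0.239 and 0.178 CPM in SCs, 6.64 and 0.0508 in cHCs, 182 and 130.5 in OHCs (P7), 81.5 and 52 in OHCs (P22), and 11 and 0.206 in IHCs. Of 12 proteases and inhibitors, 11 were tested. The inhibitors Timp2 and Timp3 were lower and the membrane protease Mmp16 was higher in OHCs (P22) than in SCs. Mmp16, at 0.0266 and 0.133 CPM in SCs, 31.3 and 28.4 in cHCs, 22.6 and 17.5 in OHCs (P7), 42.4 and 33.6 in OHCs (P22), and 0.876 and 19.8 in IHCs, was also called higher in cHCs (8.54 ± 1.88, adjusted p = 0.0477) and OHCs (P7) (7.97 ± 1.84, adjusted p = 0.04), and all hair cell libraries lay above both SC libraries. Over the 4 lists, cHCs against SCs gave no other call, Timp2 was also lower in OHCs (P22) than in cHCs (-5.28 ± 1.2, adjusted p = 0.0379), and both IHC comparisons and OHCs (P22) against OHCs (P7) gave none.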

How the data were processed

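Handpicked cells were amplified by single primer isothermal amplification and sequenced as 100-bp paired-end reads. According to the study's methods and the submitters' processing notes, the authors trimmed adapters with Cutadapt, called bases with CASAVA 1.7, aligned the trimmed reads with STAR and BWA (mouse build mm9) and counted per gene symbol with HTSeq. The deposited values are raw counts, without normalization. The strand setting is not given in the sources used here, and the exons of 10 members overlap another gene over 14 to 382 bp. Amplified reads carry no molecular identifiers, so counting intervals and floors cover counting error only. The study calls the 2 libraries of a cell type biological duplicates. The P22 outer hair cell titles differ in a letter (m and f) and in age, and the labels do not give the animals behind each library, so p-values measure the spread between these libraries.

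For 4 of 10 records, the attached file carried another sample's title. Files were matched to samples by the title in their name, a match checked by a constant ratio to the columns of the study's own expression table, and the files as attached were an alternative.

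Counts were tested in R 4.3.3 with edgeR 4.0.16 (TMM, filterByExpr by cell type, which kept 16891 of 34590 genes, quasi-likelihood F-tests, 2-sided, 1 model of all 10 libraries, common dispersion 1.12) and Benjamini-Hochberg adjustment over the 16891 genes, at a threshold of 0.05. Standard errors are the log2 difference divided by the square root of F. The study's methods name limma-voom (limma 3.58.1 here), which with DESeq2 1.42.0 was an alternative. Scripts were tested on simulated data. HTSeq's unassigned reads (44.2% to 72.1%) were left out of library sizes. A floor of 3 counts over the group was used for folds against 0. Exon lengths and coordinates are from the GENCODE annotation of mm9, and promoters from RefSeq (GRCm38.p6).

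Named with values were members called in any test, the 10 highest per kb, chains of types II, IV, IX and XI, Col1a1, Col1a2, Col3a1, laminin chains and Col4a3bp, and 1 member is not reported here. Col7a1, Col8a1, Col10a1, Col12a1, Col14a1, Col15a1, Col17a1, Col24a1, Col5a2 and Col6a5 were named after their values were seen. Members and lists were chosen with earlier results of these data known.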

Additional observations from a re-analysis of the deposited data

How the results depend on the processing

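The number of members called moved with the tool, the filter and the libraries used, whereas none of the 21 called pairs of member and comparison changed direction under any alternative that gave it a value. In the order joint test, cHCs against SCs, OHCs (P7), OHCs (P22) and IHCs against SCs, OHCs (P22) against cHCs, OHCs (P22) against OHCs (P7), and IHCs against OHCs (P22), edgeR called 8, 1, 1, 8, 1, 4, 2 and 4 members, DESeq2 17, 4, 10, 16, 11, 12, 15 and 10, limma-voom 11, 3, 6, 9, 3, 6, 3 and 3, and edgeR without a filter on low counts, which tested 54 members, 22, 2, 6, 12, 4, 7, 12 and 10. Over all genes, the joint test called 1320 in edgeR, 4396 in DESeq2, 2273 in limma-voom and 4067 without the filter, and cHCs against SCs 311, 1764, 1065 and 952. With DESeq2-type (RLE) size factors, OHCs (P22) against OHCs (P7) gave 1 call in place of 2, and no other count of members moved by over 1.5 times. With only the 2 cell types compared in a fit, the counts were 0 for cHCs, OHCs (P7) and IHCs against SCs, 7 for OHCs (P22) against SCs and 1 for each of the other 3, and 9 of the 21 pairs passed. Requiring at least 10 counts in every library left 2 members tested and gave 0 calls in each edgeR test, with 0 to 2 members at an unadjusted p under 0.05. Taking the files as attached gave 0 calls in each edgeR test, with 1 to 16 members at an unadjusted p under 0.05, and reversed 4 differences between cHCs and SCs: Lamc1 (0.21 on the log2 scale), Col18a1 (-1.51), Col27a1 (0.15) and Lama4 (-2.79). Leaving out 1 library at a time, where the lone library of a cell type is assumed to vary like the others, gave 6 to 12 calls in the joint test, 0 to 3 for cHCs against SCs, 0 to 3 for OHCs (P7) against SCs, 6 to 10 for OHCs (P22) against SCs, 0 to 2 for IHCs against SCs, 2 to 7 for OHCs (P22) against cHCs, 1 to 6 for OHCs (P22) against OHCs (P7) and 2 to 5 for IHCs against OHCs (P22). Of the 21 pairs, 14 passed without OHCs (P22) library 1, 17 without OHCs (P22) library 2 or SC library 12, 19 without cHC library 13, 20 without SC library 11 or cHC library 16, and all 21 without any of the other 4. Where a count differed, the cause was not tested. No paired analysis was made, since the cell types share no replicate numbers. The 2 kinds of title among the SC, cHC and OHCs (P7) libraries were not modelled. Without TMM scaling the summed laminin level per kb moved in cHCs (27.4 to 32.6) and IHCs (20.6 to 22.5) by more than the spread between libraries. In OHCs (P22), 3 counts over both libraries are 0.0855 CPM, the floor used for folds against 0, and pooled levels below this rest on fewer counts than that.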
